A study of Bos taurus with 129 samples.

Results

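Transcript levels of 10 genes of the tumor necrosis factor (TNF) and NF-kB feedback circuit were followed in the whole blood of newly received beef steers over 60 days. The genes were TNF, LTA, LTB, NFKBIA, TNFAIP3, NFKB1, NFKB2, RELB, BIRC3 and CD83, taken by symbol from a table of 32395 genes, and each symbol matched 1 row. All 10 were among the 18937 genes that passed the filter on low counts over all libraries. The cattle were high-risk steers bought through an order buyer and transported by trailer, and every animal received a vaccine against respiratory viruses and the dewormer doramectin at day 0 and was revaccinated at day 21. Healthy cattle were never treated for bovine respiratory disease (BRD), and BRD cattle were treated at some time, on dates that were not given in the sources used here. The INR diet carried Co, Cu, Mn and Zn as inorganic sulfates, the AAC diet carried them as amino acid complexes, and COMBO cattle received the complexed minerals in feed together with an oral trace mineral drench before shipment, at day 0 and at any treatment for illness. Blood was drawn into tubes that stabilise RNA at days 0, 13, 28, 45 and 60 from 26 animals. The 12 healthy animals (4 AAC, 4 COMBO and 4 INR) gave 59 libraries, since 1 healthy AAC library at day 13 was not analysed here, and the 14 BRD animals (4 AAC, 3 COMBO and 7 INR) gave 70.

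As background, TNF and the lymphotoxins LTA and LTB are ligands of one family that signal through receptors to the inhibitor-of-kB kinases. In the canonical branch, NF-kB dimers that include the p50 product of NFKB1 are held in the cytoplasm by the inhibitor NFKBIA until it is destroyed. In the noncanonical branch, lymphotoxin and CD40 signals lead to processing of the NFKB2 product to p52, which pairs with RELB. NF-kB in turn raises transcription of NFKBIA, of the ubiquitin-editing enzyme TNFAIP3 (A20), of the apoptosis inhibitor BIRC3 (cIAP2), of NFKB1, NFKB2 and RELB themselves, and of CD83, a surface protein of activated dendritic cells and B cells. Transcript levels in blood do not measure the activity of these proteins.

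Library totals ranged from 31613545 to 61692136 counts, with a median of 44268685. The library of healthy INR animal 50 at day 13 was the least like the median library across genes, followed by that of BRD INR animal 40 at day 60, which the study names for its low RNA integrity. Levels are given as CPM, the counts of a gene relative to the library's counts in the 18937 tested genes, scaled by trimmed mean of M-values factors. Depth was ample for 9 of the genes and thinner for LTA, which had 33 to 339 counts per library, against 862 to 2035 for TNF and 7609 to 35130 for BIRC3. Over all libraries the coefficient of variation of the CPM was lowest for RELB (13.1%) and TNF (13.28%), and highest for LTA (47.3%). CPM values carry no correction for transcript length, so levels are compared between samples and not between genes. In the annotation used for names, LTB, TNF and LTA are neighbours on chromosome 23, an uncharacterised locus with 1 to 82 counts overlaps both TNF and LTA, and LST1, with 1125 to 7001 counts, overlaps LTB. A further 2 uncharacterised loci overlap NFKB1, and 1 overlaps NFKB2. Whether the authors' counting used strand was not given in the sources used here, so reads shared by overlapping genes cannot be told apart.

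**Figure D1:**
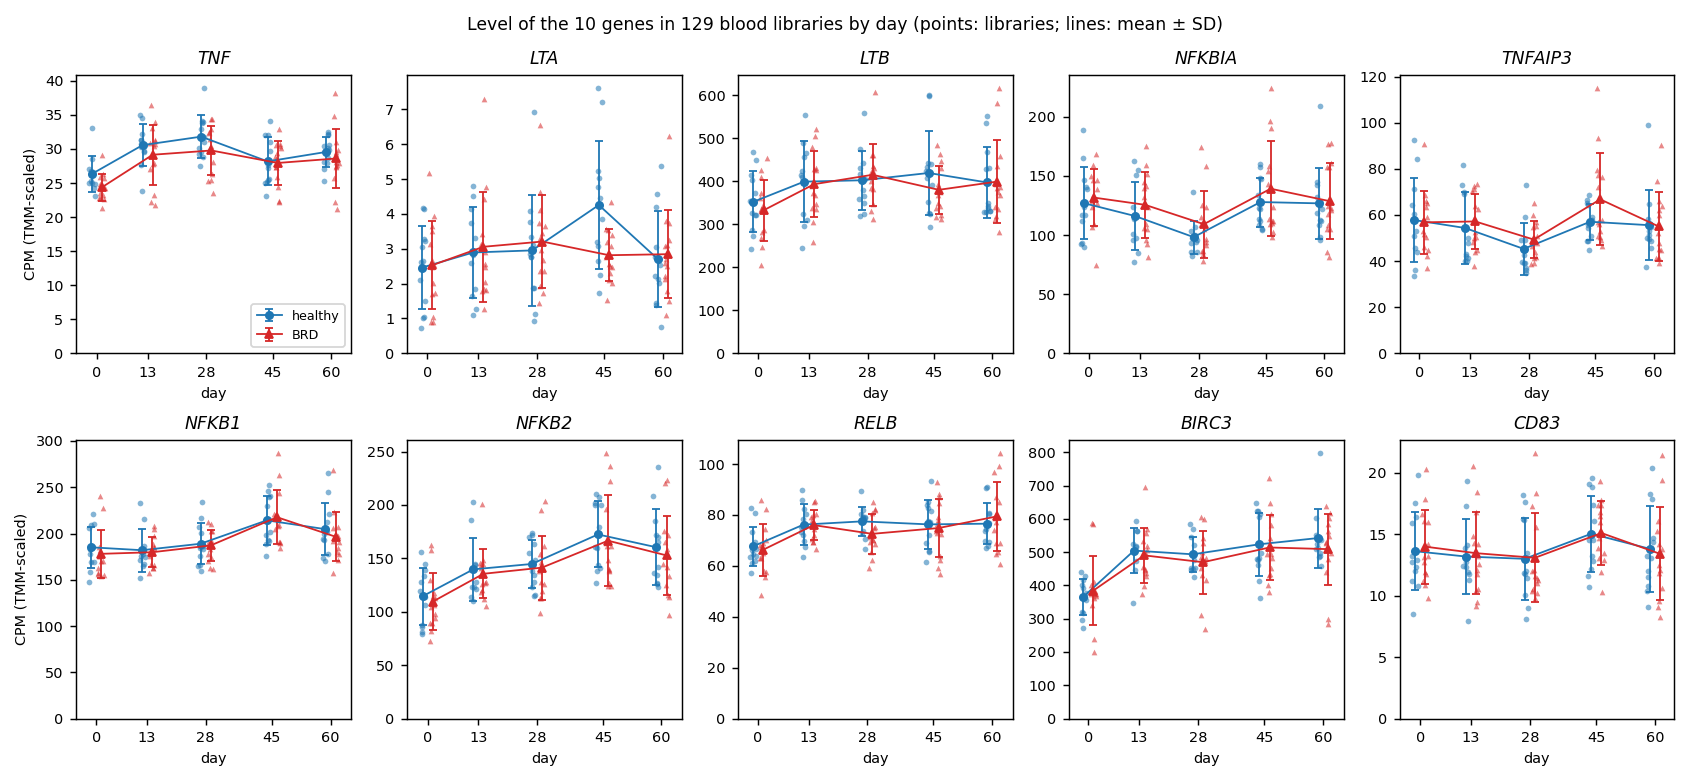
CPM (vertical axes, from 0) of each of the 10 genes against day (horizontal axes) in the 59 healthy and 70 BRD libraries. Points are single libraries of healthy (blue circles) and BRD cattle (red triangles), and lines join means with SD bars. BIRC3 and NFKB2 means were lower at day 0 than on every later day in both classes, and the points of the healthy and BRD cattle overlapped for every gene on every day.

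The first question was how these genes moved over the feeding period, comparing each animal with its own day 0. The NF-kB subunit NFKB2, its partner RELB and the apoptosis inhibitor BIRC3 were higher than at day 0 on all 4 later days in healthy and in BRD cattle, by 0.13 to 0.59 on the log2 scale. TNF rose on 4 of 4 days in BRD cattle and on 3 of 4 in healthy cattle, and NFKB1 passed the test only from day 45. NFKBIA moved the other way and was lower at day 28 in both classes. CD83 passed the test on none of the 8 comparisons with day 0. Each call comes from edgeR's quasi-likelihood test with animal as a block and a false discovery rate (FDR) below 0.10 over all 18937 genes, and since all later days share the day 0 libraries, their changes are not independent of each other.

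BIRC3 had the largest day 13 change of the 10 genes in either class. In healthy cattle its lowest, median and highest CPM were 272, 372 and 439.6 at day 0 and 349, 515 and 594 at day 13. In BRD cattle they were 201, 374 and 588 at day 0 and 375, 475 and 695 at day 13. The ranges overlapped, but within animals BIRC3 was higher at day 13 in 10 of 11 healthy and 12 of 14 BRD steers. The log2 fold change was 0.48 ± 0.10 (SE, FDR = 0.00098, edgeR) in healthy and 0.38 ± 0.09 (FDR = 0.0024) in BRD cattle. At day 60 it was 0.57 ± 0.10 and 0.41 ± 0.09, with a higher value than at day 0 in 12 of 12 healthy and 12 of 14 BRD animals.

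NFKB2 rose by a similar amount in both classes and was highest at day 45. Healthy cattle ranged from 78.8 to 156 CPM at day 0 (median 116.7) and from 127.1 to 209.8 at day 45 (median 170). BRD cattle ranged from 72.8 to 163 CPM at day 0 and from 123.8 to 249 at day 45 (median 155). The log2 fold changes at day 45 were 0.59 ± 0.09 (SE, FDR = 1.8e-06, edgeR) in healthy and 0.59 ± 0.09 (FDR = 1.4e-07) in BRD cattle, and 24 of 26 animals were above their own day 0. At days 13, 28 and 60 NFKB2 stood 0.30, 0.34 and 0.47 above day 0 in healthy cattle and 0.32, 0.36 and 0.46 in BRD cattle. RELB moved less and kept a level course after day 13. Its mean was 66.9 ± 8.95 CPM at day 0 (SD, n = 26) and lay between 74.8 and 78.1 CPM on the 4 later days. The log2 changes of RELB were 0.17 to 0.20 in healthy and 0.13 to 0.26 in BRD cattle, and the smallest, at day 28 in BRD cattle (FDR = 0.096), failed the threshold under 8 of 12 alternative settings, not counting those that left out single animals.

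NFKB1, which encodes the p105 precursor of p50, did not pass at day 13 or day 28 in either class. The log2 change from day 0 to day 28 was 0.03 ± 0.05 in healthy and 0.07 ± 0.04 in BRD cattle. NFKB1 was higher at day 28 in 6 of 12 healthy and 12 of 14 BRD animals. At day 45 it rose by 0.21 ± 0.05 (SE, FDR = 0.0018, edgeR) in healthy and 0.29 ± 0.04 (FDR = 7.2e-07) in BRD cattle. Its CPM over all 26 animals was 148 to 241 at day 0 (median 177) and 175 to 287 at day 45 (median 211), and 24 of 26 animals had risen.

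Among the ligands, TNF rose by a small amount that repeated in most animals. In healthy cattle its CPM was 23.1 to 33.1 at day 0 (median 25.8) and 27.4 to 38.98 at day 28 (median 31.4). In BRD cattle it was 21.3 to 29.1 at day 0 (median 24.3) and 23.48 to 34.3 at day 28 (median 30.4). The log2 change at day 28 was 0.27 ± 0.06 (SE, FDR = 0.0011, edgeR) in healthy and 0.29 ± 0.06 (FDR = 0.00014) in BRD cattle, with 25 of 26 animals higher. At day 45 the healthy change was 0.09 ± 0.06 and did not pass (FDR = 0.47), while BRD cattle kept a rise of 0.20 ± 0.06. LTB, which anchors lymphotoxin at the cell surface, passed at days 13, 28 and 60 in BRD cattle, with log2 changes of 0.24, 0.32 and 0.26. In healthy cattle LTB passed only at day 45, at 0.25 ± 0.09 (FDR = 0.096), and its other changes were 0.17 to 0.20. The difference between the classes in these changes was tested and no gene passed, as given below.

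LTA, the soluble lymphotoxin, was the least abundant in counts and the most variable. Its CPM was 0.731 to 4.16 in healthy cattle at day 0 (median 2.64) and 1.73 to 7.62 at day 45 (median 4.16). BRD cattle had 0.897 to 5.18 CPM at day 0 (median 2.51) and 1.52 to 4.35 at day 45 (median 2.66). The single comparison that passed was the healthy rise at day 45, 0.81 ± 0.25 (SE, FDR = 0.03, edgeR), with 9 of 12 animals higher. It failed the threshold without healthy AAC animal 49, the animal with the highest LTA mean, in a limma-voom refit (FDR = 0.11), and in a fit without the animal block (FDR = 0.14, edgeR).

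The inhibitors NFKBIA and TNFAIP3 followed a course of their own. NFKBIA had 89.5 to 189 CPM in healthy cattle at day 0 and 82.3 to 136 at day 28 (median 96.6). In BRD cattle it had 74.6 to 168 CPM at day 0 (median 133) and 77.8 to 174 at day 28 (median 101.1). It fell by 0.35 on the log2 scale in healthy cattle (SE 0.11, FDR = 0.023, edgeR) and by 0.28 in BRD cattle (SE 0.10, FDR = 0.049), and was lower in 19 of 26 animals. TNFAIP3 fell by 0.33 in healthy cattle at day 28 (SE 0.12, FDR = 0.052), where its CPM went from 33.4 to 92.5 at day 0 (median 55.6) to 34.8 to 72.9 (median 41.1). In BRD cattle its log2 change was -0.19 ± 0.11 and did not pass (FDR = 0.28). Neither inhibitor passed at days 13, 45 or 60 in either class.

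**Figure D2:**
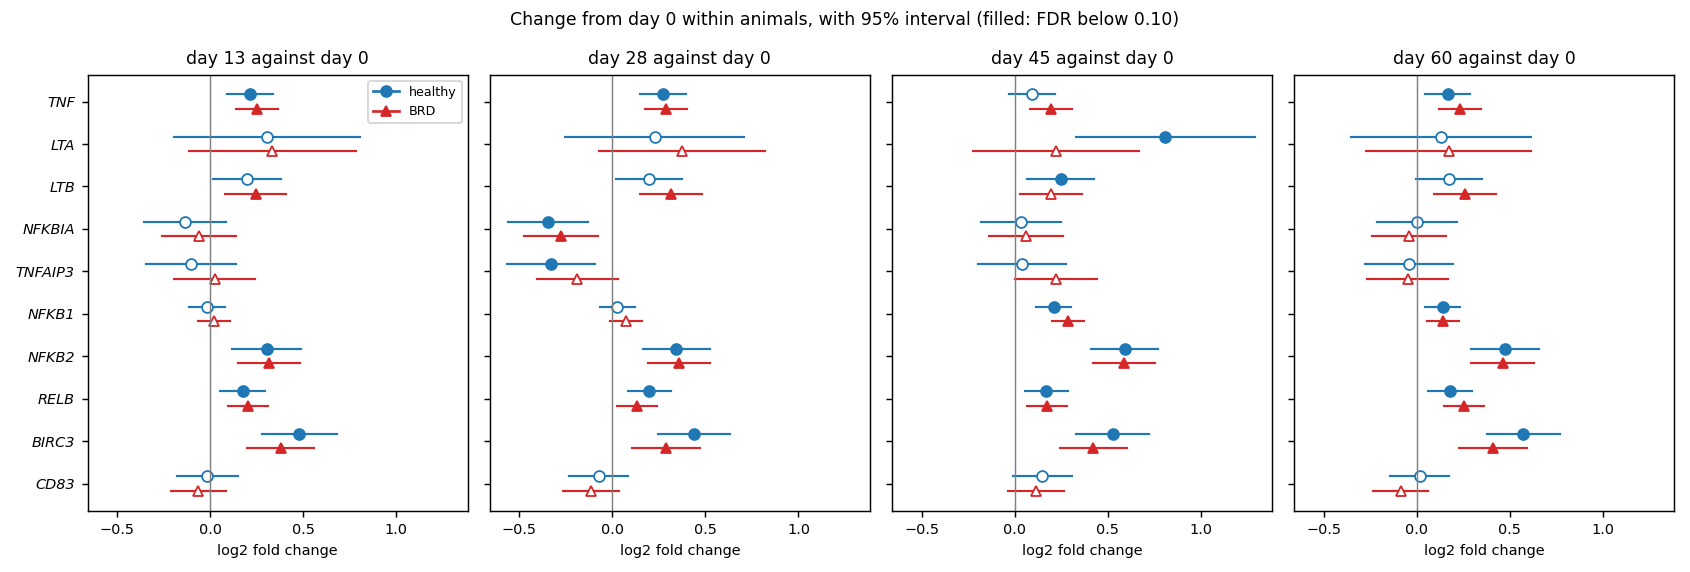
Log2 fold change from day 0 (horizontal axes) of each gene (vertical axis) at days 13, 28, 45 and 60 in healthy (blue circles) and BRD cattle (red triangles), with 95% intervals from the SE. Filled symbols had an FDR below 0.10. NFKB2, RELB and BIRC3 were filled on all 4 days in both classes, and NFKBIA lay left of 0 and was filled at day 28 in both.

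Against these counts, the share of all tested genes called has to be set. In healthy cattle 4 of the 10 genes rose at day 13, 4 at day 28, 6 at day 45 and 5 at day 60, where 6.11%, 10.76%, 4.36% and 5.83% of all genes were called higher. In the same cattle 2 genes fell at day 28 and none on the other days, where 4.84%, 10.22%, 4.19% and 5.81% of all genes were called lower at days 13, 28, 45 and 60. In BRD cattle 5, 5, 5 and 6 of the 10 rose on those days, where 9.08%, 9.78%, 11.77% and 9.45% of all genes were called higher. One of the 10 fell, at day 28, and the shares of all genes called lower in BRD cattle were 8.35%, 10.27%, 10.74% and 10.17%. The median log2 change of the 10 genes was between 0.15 and 0.22 in all 8 comparisons, and that of all tested genes lay between -0.01 and 0.01. Without the animal block, 1, 5, 3 and 2 of the 10 genes were called in healthy cattle and 2, 1, 4 and 4 in BRD cattle at days 13, 28, 45 and 60, and every called gene kept its direction. BIRC3 then passed in 7 of the 8 comparisons and NFKB2 in 5. Without healthy AAC animal 49, in limma-voom refits with the block, the healthy counts were 3 at day 45 and 2 at day 60, and without healthy COMBO animal 6 the count at day 60 was 3.

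After day 28 the course of the inhibitors turned. The comparison of day 45 with day 28 in all 26 animals was added after the values had been seen. NFKBIA rose by 0.36 ± 0.07 on the log2 scale (SE, FDR = 0.00017, edgeR) and TNFAIP3 by 0.39 ± 0.08 (FDR = 0.00021), each in 22 of 26 animals. Median NFKBIA went from 97.1 CPM (range 77.8 to 174) to 122.3 CPM (98.05 to 225), and median TNFAIP3 from 45.5 CPM (34.8 to 72.9) to 57.4 CPM (44.8 to 115.2). NFKB1 (0.20 ± 0.03), NFKB2 (0.24 ± 0.06) and CD83 (0.23 ± 0.06, FDR = 0.0014) rose over the same interval, NFKB1 in 25 of 26 animals. TNF fell by 0.13 (SE 0.04, FDR = 0.015), in 21 of 26 animals. With 5 of 10 genes higher and 1 lower, the background was 13.65% of all genes called higher and 14.60% called lower.

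Markers of blood cell types moved over the same days. In bulk blood, fewer cells of a type and less RNA per cell cannot be told apart. At day 13, 6.11% of all genes were called higher and 4.84% lower in healthy cattle, and 9.08% and 8.35% in BRD cattle. Shares for the later days are those given above. Of 7 erythroid markers 5 rose in healthy and 7 in BRD cattle from day 0 to day 13, and their summed level went from 19.1 to 916 CPM at day 0 to a median of 1350 (up to 8570) CPM in healthy cattle and from a median of 145 (up to 2570) CPM to a median of 2920 (up to 27900) CPM in BRD cattle. Of 9 monocyte markers, 4 fell in healthy and 5 in BRD cattle, and the summed level was 2380 to 6610 and then 2090 to 4570 CPM in healthy and 1840 to 11400 and then 1600 to 5230 CPM in BRD cattle. Of 10 measured neutrophil markers, 1 fell and 1 rose in healthy and 6 fell and 1 rose in BRD cattle at day 13, with summed levels of 2660 to 6620 and 2080 to 4010 CPM in healthy and 2380 to 11800 and 2490 to 4740 CPM in BRD cattle. Platelet markers rose in 1 of 6 in healthy and 5 of 6 in BRD cattle. No marker of B cells (8 measured) or T cells (9 measured) was called at day 13, and of 8 NK and cytotoxic markers 2 fell in healthy cattle while 2 rose and 1 fell in BRD cattle. On later days 2 of 8 B cell markers rose in each class at day 45, with 1 lower in BRD cattle, and 2 in healthy and 3 in BRD cattle rose at day 60. Their summed level had a median of 2200 CPM at day 0, 2630 at day 45 and 2520 at day 60 in healthy cattle, and of 2260, 2750 and 2590 CPM in BRD cattle. Of the 10 neutrophil markers 6 fell in healthy and 7 in BRD cattle at day 28, and 0 and 5 at day 45. The defining markers CD3E (144 to 680 CPM) and CD14 (median 53.5 and up to 338 CPM) were present in every library. The part these shifts had in the changes of the 10 genes was not tested.

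Transcripts induced by glucocorticoids, the stress hormones that also raise NFKBIA transcription, fell over the same days. Of 9 such genes 7 fell in healthy and 5 in BRD cattle by day 13, and 8 in each class by day 28, with none rising. In healthy and BRD cattle, 4.84% and 8.35% of all genes were called lower at day 13 and 10.22% and 10.27% at day 28. Shares for days 45 and 60 are those given above. FKBP5, which binds the receptor complex, fell by 1.24 on the log2 scale at day 13 in healthy cattle (FDR = 2.7e-06, edgeR) and by 0.47 in BRD cattle (FDR = 0.052). CD163, a scavenger receptor that also counts as a monocyte marker, fell by 1.34 in healthy cattle and fell by 2.09 in BRD cattle. From day 28 to day 45, when NFKBIA and TNFAIP3 rose, 3 of these 9 genes rose and none fell, where 13.65% of all genes were called higher. At days 45 and 60, 8 of the 9 were still below day 0 in healthy and 7 in BRD cattle, whereas the log2 change of NFKBIA from day 0 was 0.03 and 0.002 in healthy and 0.06 and -0.04 in BRD cattle, and did not pass. Of 12 immediate-early genes, which respond to handling of blood as well as to signals in the animal, 5 fell in healthy and 6 in BRD cattle at day 28, and 9 rose from day 28 to day 45. DUSP1, which is in both lists, fell at day 28 by 1.16 in healthy and 1.02 in BRD cattle. NR4A1, in contrast, rose by 1.13 and 1.21. The part of either list in the course of NFKBIA and TNFAIP3 was not tested.

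The second question was whether cattle that were treated for BRD differed from those that stayed healthy. None of the 10 genes passed on any of the 5 days by edgeR or by any other tool run, where 0.0158%, 0%, 0.00528%, 0% and 0.00528% of all genes were called at days 0, 13, 28, 45 and 60. At an unadjusted p under 0.05, which chance alone passes in a share of about 0.05 of tests, 1 of the 10 genes passed on 1 of the 5 days. That gene was LTA at day 45, with a log2 difference of -0.60 ± 0.26 (SE, FDR = 1, edgeR) and a 95% interval of -1.10 to -0.10, where healthy cattle had a median of 4.16 CPM and BRD cattle 2.66. For TNF the log2 difference of BRD from healthy cattle was -0.10 at day 0, with a 95% interval of -0.24 to 0.04, and between -0.09 and -0.002 on the later days. For NFKB1 it was -0.08 to 0.01 over the 5 days, and the day 0 interval was -0.16 to 0.10. For RELB it was -0.10 to 0.02, and the day 0 interval was -0.14 to 0.13. The intervals spanned 0 for every gene and day but LTA at day 45. The changes from day 0 were not called different between BRD and healthy cattle for any of the 18937 genes, with 0% called at days 13, 28, 45 and 60 by edgeR, and none of the 10 genes was called by any other tool run or had an unadjusted p under 0.05. For TNF these differences in change were 0.01 to 0.10 on the log2 scale, and for BIRC3 they were -0.16 to -0.10. The largest among the 10 was that of LTA at day 45, at -0.59 ± 0.33. The study reports that steers were rotated between pens at regular intervals because of possible pen effects. Each animal has a single pen number here, which names its pen group and not fixed housing. Pen groups 2, 3, 4 and 8 held animals of both classes. The COMBO animals of the 2 classes were in separate pen groups, and pen group 7 held 4 BRD INR animals and no healthy animal. Class and pen group thus cannot be told apart within COMBO or for the animals of pen group 7.

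**Figure D3:**
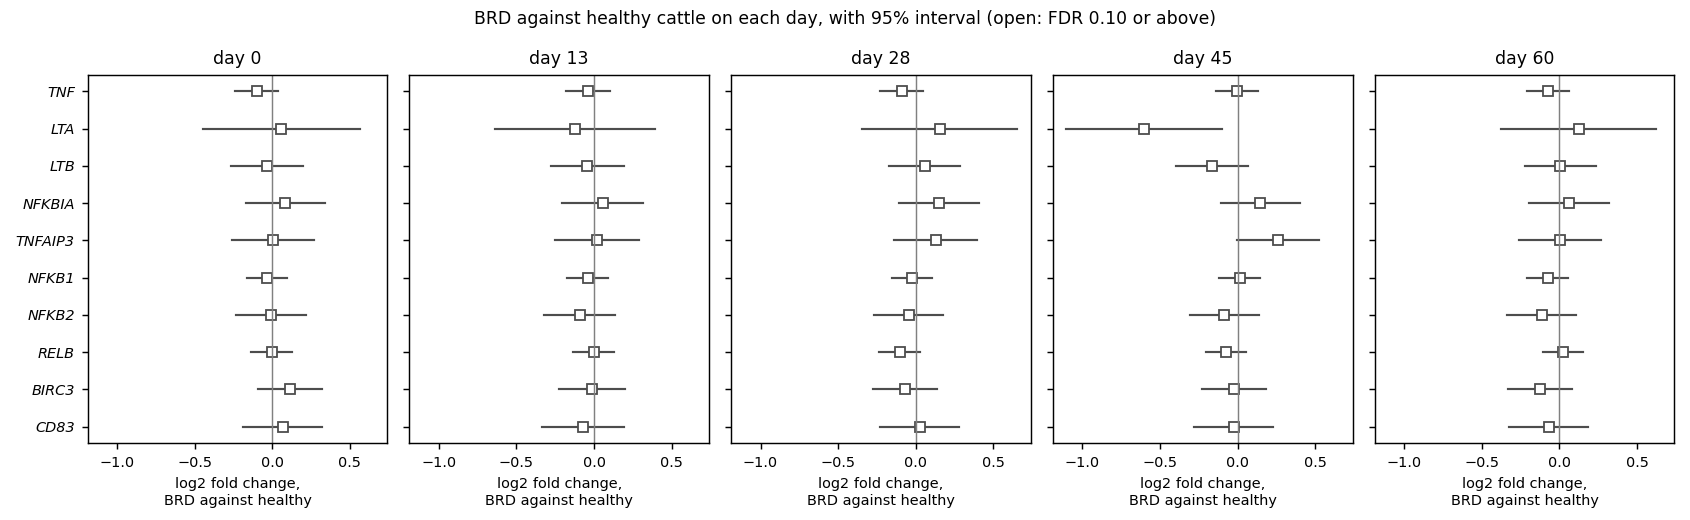
Log2 fold change of BRD against healthy cattle (horizontal axes) for each gene (vertical axis) on each of the 5 days, with 95% intervals from the SE. All symbols are open because no FDR was below 0.10. Only the interval of LTA at day 45, -1.10 to -0.10, lies clear of 0.

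The third question was whether these genes differed between supplements. Feeding in the assigned pens began at day 0, so differences at day 0 precede the feed supplements, although COMBO cattle had also received the drench before shipment. In healthy cattle none of the 10 genes was called between any pair of supplements on any day, where edgeR called 0.0383% of all gene and day tests between AAC and COMBO, 0.0142% between COMBO and INR and 0.0624% between AAC and INR. No member of the 10 was called there by any other tool run either. At an unadjusted p under 0.05, 3, 5 and 2 of the 50 gene and day tests passed for these pairs. Chance alone passes a share of about 0.05 of tests at that threshold. With 4 animals per group the intervals were wide. The test with the smallest p was that of TNFAIP3 at day 0 in COMBO against INR cattle. Its log2 difference of 0.67 had an interval of 0.23 to 1.11 and an FDR of 0.36. In BRD cattle there were 5 calls between AAC and COMBO (3.86% of all gene and day tests), 1 between COMBO and INR (0.187%) and 1 between AAC and INR (0.589%). All 5 calls between AAC and COMBO were at day 0, where 12.89% of all genes were called, so that 5 of 10 genes were called in a comparison in which many genes were. Supplements were assigned to pen groups, and each pen group held a single supplement. The healthy COMBO animals were all of pen 5, and the 3 BRD COMBO animals were the BRD animals of pen 6. AAC animals came from pens 2 and 8 and INR animals from pens 3, 4 and 7. The supplement tests had no pen term, so in either class differences between supplements cannot be told apart from differences between pen groups. Because steers were rotated, this concerns the groups of animals and not a fixed pen for the whole period.

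At day 0 LTA, NFKB1, NFKB2, RELB and BIRC3 were lower in AAC than in COMBO BRD cattle, and NFKB2 was also called higher in COMBO than in INR cattle. RELB was not called between COMBO and INR (log2 fold change 0.27, FDR = 0.29, edgeR). NFKB2 had 129.9, 158 and 163 CPM in the 3 COMBO animals, 89.6, 98.05, 106.4 and 112.4 CPM in the 4 AAC animals, and 72.8 to 117.9 CPM in the 7 INR animals (median 94.3). The COMBO values lay above all others, and the log2 fold change was -0.57 for AAC against COMBO (FDR = 0.063, edgeR) and 0.64 for COMBO against INR (FDR = 0.087, where 0.920% of all genes were called). NFKB1 had 182, 228 and 241 CPM in COMBO against 155, 156, 157 and 162 CPM in AAC animals, a log2 fold change of -0.46 (FDR = 0.0074). LTA had 2.69, 3.95 and 5.18 CPM against 0.906, 1.72, 2.01 and 2.53 CPM (-1.13, FDR = 0.066). BIRC3 had 401, 586 and 588 CPM against 201, 361, 382 and 382 CPM (-0.66, FDR = 0.057). RELB had 64.9, 82.2 and 85.9 CPM against 55.5, 57.8, 63.03 and 68.04 CPM (-0.35, FDR = 0.078). Leaving out each of the 14 BRD animals in turn kept the call of NFKB1 in 13 refits, of BIRC3 in 11, of LTA and NFKB2 in 9 and of RELB in 8, and without COMBO animal 18 none of the 5 was called. The call of NFKB2 between COMBO and INR was kept in 4 of the 14. TNF, NFKBIA and TNFAIP3 gave log2 fold changes of 0.06, 0.11 and 0.32, none of which passed.

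**Figure D4:**
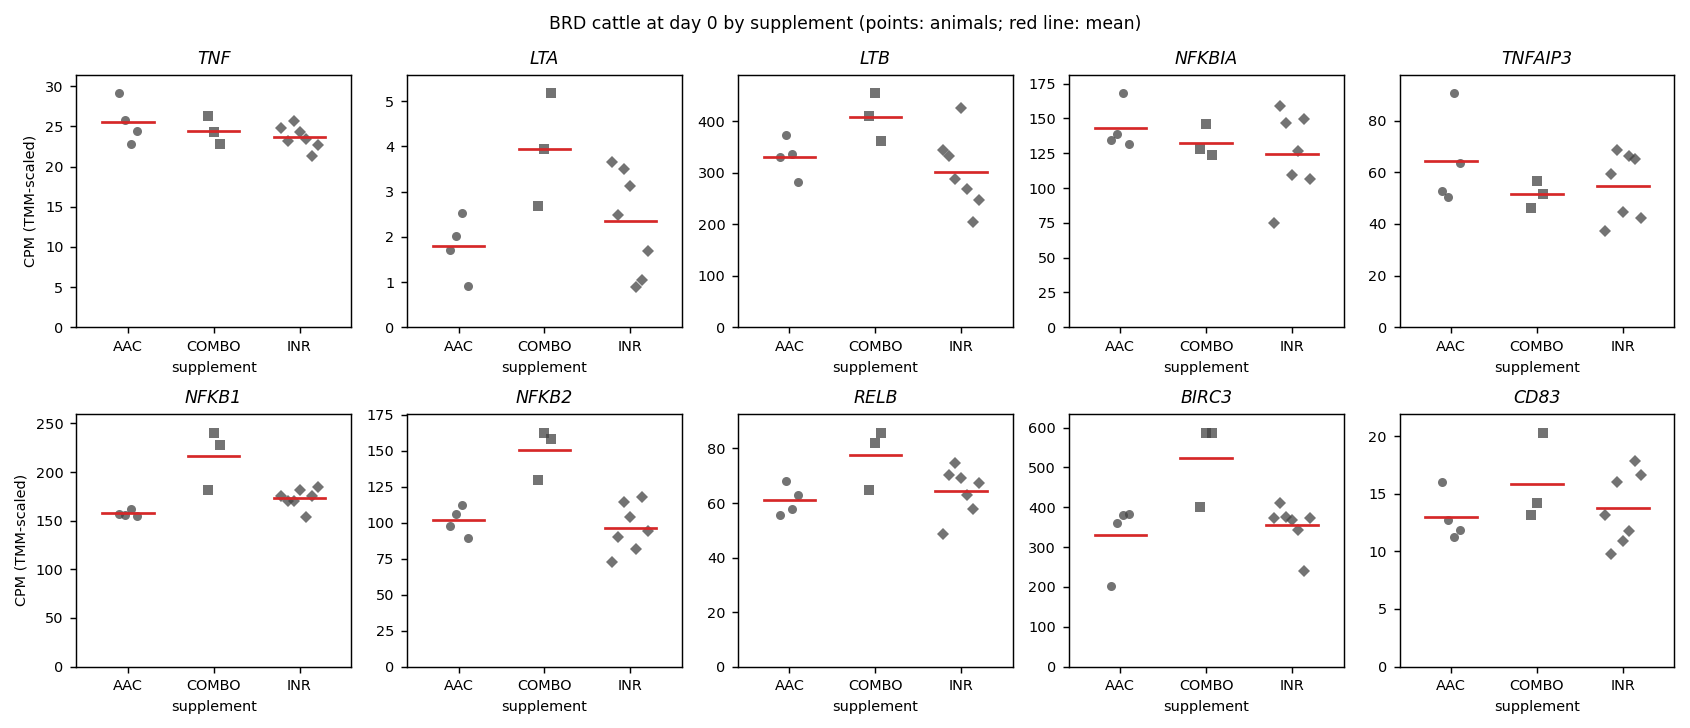
CPM (vertical axes, from 0) of each gene in the 14 BRD cattle at day 0 by supplement (horizontal axes). Points are animals and red lines are means. The COMBO mean lies above the AAC mean for every gene except TNF, NFKBIA and TNFAIP3.

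Markers of B cells moved with this contrast. Of 8 B cell markers 7 were lower in AAC than in COMBO BRD cattle at day 0, and their summed level was 1070 to 1620 CPM in AAC, 2400 to 3770 CPM in COMBO and 1540 to 2570 CPM in INR animals. Of 9 monocyte markers 3 were higher in AAC, with sums of 4240 to 11400 CPM against 1840 to 3860 CPM in COMBO. In this comparison 12.89% of all genes were called. Summed medians in AAC and COMBO also differed for erythroid markers (303 and 141 CPM) and glucocorticoid-induced genes (2220 and 1410 CPM). The ranges of these and the remaining lists overlapped. The part of any list in the differences of the 10 genes was not tested. On days 13 to 60 none of the 10 genes was called between AAC and COMBO BRD cattle, but some differences were about as large as at day 0. For LTA the log2 fold change was -1.06 at day 28 (FDR = 0.25, edgeR) and -1.17 at day 60 (95% interval -1.94 to -0.39, FDR = 0.24). For NFKB2 it was -0.51 at day 28 (FDR = 0.26), and for RELB -0.37 at day 60 (FDR = 0.25). In a fit blocked on the animal, supplements were compared by how far each gene moved from day 0 in place of its level. The change of NFKB1 was lower in COMBO than in AAC cattle by day 13 (log2 difference 0.48, FDR = 0.082, edgeR, where 1.19% of all genes were called) and by day 60 (0.42, FDR = 0.058, 4.75% of all genes). That of BIRC3 was lower by day 60 (0.82, FDR = 0.099). Against INR, the change in COMBO cattle was smaller for NFKB2 at day 13 (-0.85, FDR = 0.082, 0.0758% of all genes) and for NFKB1, NFKB2 and BIRC3 at day 60 (-0.41, -0.71 and -0.84, 1.65% of all genes). These comparisons share the day 0 libraries that gave the calls above. Separately, RELB was lower in AAC than in INR BRD cattle at day 60, with 60.8 to 69.2 CPM in 4 animals and 69.1 to 104.3 CPM in 7 (log2 fold change -0.39, FDR = 0.088, edgeR, where 1.21% of all genes were called). The ranges just overlapped, 3 of 8 B cell markers were also lower in AAC in this contrast, and the call was lost without the day 60 library of INR animal 40 (FDR = 0.12) and in 7 of the 14 refits that left out 1 animal.

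The animal was a larger source of variation than the day for most of the genes. Means per animal accounted for 26.2% to 47.51% of the variance of log2 CPM in 9 of the genes and for more in CD83, whereas means per day accounted for 33.01% in NFKB2, 31.02% in BIRC3, 25.6% in NFKB1, 24.7% in TNF and 5.49% in CD83. The BRD label accounted for at most 3.28%, in TNF. With 5 libraries or fewer per animal, some of the animal share comes from chance. CD83, with the largest animal share, had a day 0 level of 8.51 to 19.8 CPM in healthy and 9.77 to 20.3 CPM in BRD cattle. TNF means per animal ran from 23.04 to 32.8 CPM, and those of LTA from 1.65 to 4.71 CPM.

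Over the 59 healthy and 70 BRD libraries some of the genes varied together, given here as a description because libraries of 1 animal and 1 day are not independent. NFKBIA and TNFAIP3 had a Spearman's rho of 0.83, and of 0.85 after each animal's mean was removed. NFKB2 correlated with NFKB1 (0.79) and RELB (0.76). CD83 correlated less closely with NFKB2 (0.59) and NFKB1 (0.525), and BIRC3 with RELB (0.525) and NFKB2 (0.50). LTA and LTB, which encode the 2 subunits of surface lymphotoxin, had a rho of 0.56. TNF stood apart, with a rho of 0.23 or less with each other gene and of -0.33 with NFKBIA. Of all tested genes, those most like NFKBIA were TNFAIP3, TXNIP (0.82) and DUSP1 (0.80), and the same 2 followed NFKBIA in the list for TNFAIP3. Those most like NFKB2 were MYO1C (0.80), CD40 (0.80) and NFKB1, and those most like RELB were NFKB2, CD40 (0.74) and CD72 (0.71), a surface protein of B cells. CD83 was most like BOLA-DRA (0.74), which encodes a class II antigen-presenting chain, and then NSMAF and VPS18. BIRC3 was most like CREB1 (0.84), PANK3 and SON. NFKB1 was most like RTF1, MTPN and C23H6orf106 (0.83 to 0.84). LTB was most like PRMT1 (0.74), BYSL and WDYHV1, and PCED1B and PRMT1 were among those most like LTA. For TNF no gene exceeded 0.46, the value of SLC20A1 and PDGFRA, with IFT80 next.

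**Figure D5:**
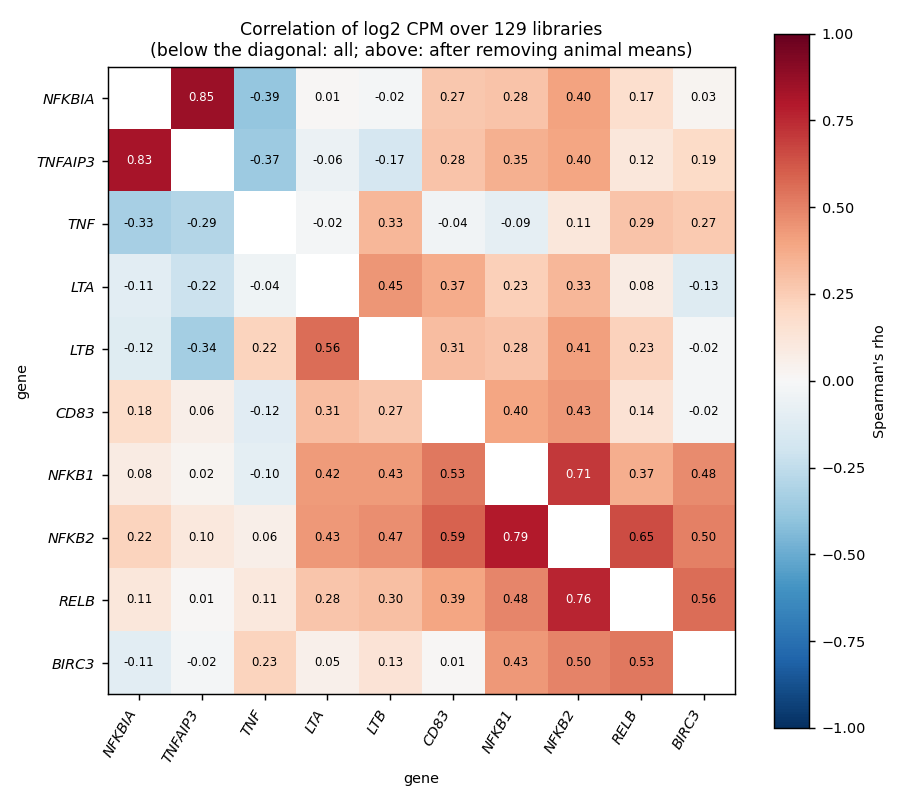
Spearman's rho between log2 CPM of the 10 genes over all libraries, below the diagonal as measured and above it after removing each animal's mean. Both axes list the genes, and the colour scale runs from -1 to 1. NFKBIA with TNFAIP3 (0.83 and 0.85), NFKB2 with NFKB1 (0.79 and 0.71) and NFKB2 with RELB (0.76 and 0.65) are the deepest red cells.

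Other genes of the pathway were taken from lists chosen by function, and their day 13 counts are to be read against the 6.11% and 4.84% of all genes called higher and lower in healthy cattle and the 9.08% and 8.35% in BRD cattle. The counts of ligands and kinases, and those of receptors in healthy cattle, were near that background. Of 10 further ligands of the TNF family, 1 rose and 1 fell in each class by day 13. TNFSF9 (4-1BB ligand), which drives T cell costimulation, rose by 0.52 in healthy and 0.56 in BRD cattle on the log2 scale (FDR = 0.012 and 0.0011, edgeR). TNFSF8 fell by 0.17 in healthy cattle. Of 14 receptors and adaptors, 1 rose and 1 fell in healthy cattle and 2 rose and 3 fell in BRD cattle. CD40, the receptor that feeds the noncanonical branch, rose by 0.38 in healthy (FDR = 0.0057) and 0.29 in BRD cattle (FDR = 0.015) by day 13, and was 0.52 and 0.33 above day 0 at day 60. TNFRSF1A, the main receptor for soluble TNF, fell by 0.47 in BRD cattle (FDR = 0.0011), and its change in healthy cattle was -0.19 (FDR = 0.34).

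Few of the kinases and remaining subunits were called. Of 10 such genes none was called in healthy cattle at day 13 and 1 fell in BRD cattle. That gene was RELA, the p65 partner of p50, which fell by 0.12 on the log2 scale (FDR = 0.064, edgeR). The kinase-complex regulator IKBKG changed by -0.05 in BRD cattle and MAP3K14, the kinase of the noncanonical branch, by 0.03. Of 17 further inhibitors and feedback genes, 2 rose in healthy and 4 rose and 1 fell in BRD cattle. TNIP3, which binds A20, rose by 0.92 in healthy (FDR = 0.07) and 1.52 in BRD cattle (FDR = 0.00017). ZFP36, which destabilises TNF transcripts, fell by 0.31 in BRD cattle (FDR = 0.011), with -0.13 in healthy cattle (FDR = 0.47). From day 28 to day 45, 8 of these 17 rose and none fell, where 13.65% of all genes were called higher and 14.60% lower.

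Of 25 measured NF-kB target genes, 4 rose and 2 fell in healthy and 6 rose and 3 fell in BRD cattle by day 13. EBI3, a subunit of regulatory cytokines, rose by 0.87 in healthy and 1.32 in BRD cattle on the log2 scale (FDR = 0.0002 and 1.1e-10, edgeR), and PTGS2, the inducible prostaglandin synthase, by 0.96 and 0.56. SOD2, the mitochondrial superoxide dismutase, fell by 0.50 in BRD cattle (FDR = 0.03) and changed by -0.02 in healthy cattle (FDR = 0.97). The median log2 change of the 25 at day 13 was 0.15 in healthy and 0.06 in BRD cattle. None of the genes in these lists was called between BRD and healthy cattle at day 0, and the smallest p there among the targets was that of GADD45B, with a log2 difference of 0.67 (FDR = 0.14).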

How the data were processed

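Whole blood RNA from 26 steers was sequenced at 5 time points. Per the labels and the study's methods, the authors used Trimmomatic for trimming, HISAT2 for mapping (assembly ARS-UCD1.3) and StringTie 2.2.0 for transcript assembly, and derived gene counts with prepDE. The deposited counts were not normalised, and they come from coverage and read length, not from a direct tally. Here they were fitted with edgeR 4.0.16 in R 4.3.3 (TMM factors, filterByExpr, common dispersion, quasi-likelihood F-test, Benjamini-Hochberg adjustment per comparison, FDR below 0.10). BRD and healthy cattle were compared over equally weighted supplements, changes from day 0 with animal as a block, and supplements within each class. Libraries of one animal deviated together (median correlation 0.393, against -0.011 between animals), so the animal pairs the days. Cattle are the replicates, although supplements were assigned by pen and the supplement tests had no pen term. Alternatives used DESeq2 1.42.0 and limma 3.58.1. The code was tested on simulated data. The 10 genes and all lists were chosen with earlier results of these data known. Named list genes were those of the 2 smallest p at day 0 (BRD against healthy) or for the change to day 13. For each of the 10, the 3 genes most like it by Spearman correlation were also named, with 2 defining cell markers, except for items not reported here. Gene names and neighbours came from RefSeq, assembly ARS-UCD2.0, and no sequence was used.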

Additional observations from a re-analysis of the deposited data

Results flagged for a closer look

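In 17 of 240 groups of 4 to 7 animals, 1 library stood far from the others of its gene, class, supplement and day. Chance flags about 1 in 20 such groups. BIRC3 had 7 of the 17. BRD INR animal 40 was lowest for BIRC3 at day 0 (239.6 CPM, others 342 to 410), at day 28 (269 CPM, others 474 to 601) and at day 60 (299.6 CPM, others 515 to 638), and BRD AAC animal 21 was lowest at day 0 (201 CPM, others 361 to 382). In healthy COMBO animal 3, BIRC3 was lowest at day 13 (349 CPM, others 505 to 525) and highest at day 45 (605 CPM, others 463 to 483). Healthy INR animal 30 had the highest BIRC3 at day 60 (798 CPM, others 508 to 552).

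NFKB2 stood out in 4 groups, with 162 CPM in BRD AAC animal 31 at day 45 (others 123.8 to 126.8), 201 CPM in BRD INR animal 43 at day 13 (others up to 148), 141 CPM in healthy AAC animal 46 at day 45 (others 200 to 208) and 208 CPM in healthy COMBO animal 6 at day 60 (others 127.3 to 136). RELB stood out in 3 groups, with 80.9 CPM in healthy COMBO animal 42 at day 0 (others 62.1 to 64.7), 70.7 CPM in healthy COMBO animal 57 at day 28 (others 78.2 to 79.2) and 89.25 CPM in healthy INR animal 7 at day 28 (others 78.8 to 80.5). Healthy INR animal 10 had 30.1 CPM of TNF at day 28 (others 33.7 to 34.17) and 536 CPM of LTB at day 60 (others 329 to 344). CD83 was 8.51 CPM in healthy COMBO animal 42 at day 0 (others 12.02 to 12.7). No explanation of these values was tested.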

How the results depend on the processing

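No called gene changed direction under any alternative run. Of 262 recounts of called genes under settings that kept all animals or left out a library or the BRD COMBO cattle, 245 stayed within 1.5 times the reported count. Many of these were comparisons with a reported count of 0, where a second 0 was scored as unchanged. The score compares the number of genes called, not which genes were called. None of the 10 genes was called for BRD against healthy cattle, for the difference in change, or for supplements in healthy cattle under any of these settings. Without the animal as a replicate block, the count fell from 4 to 1 at day 13, from 6 to 3 at day 45 and from 5 to 2 at day 60 in healthy cattle, and from 5 to 2 at day 13 and from 6 to 1 at day 28 in BRD cattle. At an FDR below 0.05 it was 3 at day 60 in healthy cattle, and in BRD cattle 1 for AAC against COMBO and 0 for each other pair. limma-voom with a correlation within animals gave 3 at day 13 in BRD cattle. For COMBO against INR, DESeq2 gave 2, and the filter of 1 count in 2 libraries gave 0, as it did for AAC against INR. Without the day 60 library of BRD INR animal 40, AAC against INR gave 0. With the animal as a replicate block, the change from day 0 gave 3 calls between AAC and COMBO, 4 between COMBO and INR and 0 between AAC and INR in BRD cattle, where the level at days 13 to 60 gave 0, 0 and 1.

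Each animal was left out in turn, with edgeR except for the changes over days, which were refitted with limma-voom and the animal block, chosen after seeing the data because the edgeR refits were too slow and were not run. The counts then ranged from 3 to 4, 5 to 7, 3 to 6 and 2 to 5 in healthy cattle at days 13, 28, 45 and 60. They ranged from 5 to 5, 4 to 7, 5 to 7 and 5 to 6 in BRD cattle, and stayed at 6 for day 28 to day 45. Healthy AAC animal 49 set the lowest counts at days 45 (3) and 60 (2), and without healthy COMBO animal 6 the count at day 60 was 3. In BRD cattle the ranges were 0 to 6 between AAC and COMBO, 0 to 4 between COMBO and INR and 0 to 2 between AAC and INR. AAC against COMBO gave 2 without AAC animal 9, 1 without AAC animal 21, 3 without AAC animal 31, 0 without COMBO animal 18 and 1 without COMBO animal 54. COMBO against INR gave 4 without COMBO animal 16, 2 without INR animal 43, 1 without INR animal 23 or 40, and 0 without any other animal. AAC against INR gave 2 without INR animal 23 and 0 without any AAC animal or INR animal 29, 40 or 43. LTA had the fewest counts, and its SE of 0.23 to 0.25 for changes from day 0 limits what could be detected.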
